A study of Mus musculus with 6 samples.

Results

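The genes described here are 10 that cells switch on or adjust when oxygen is short: *Ndufa4l2*, *Cited2*, *Vegfa*, *Slc2a1*, *Pgk1*, *Ldha*, *Adm*, *Bnip3*, *Ndrg1* and *Egln3*. All 10 were found by symbol among 22158 genes of the transcript table, and all 10 passed the filter on low values, an average of 0.5 FPKM or more across all libraries, as did 14865 genes in all. They were chosen by their known place in the hypoxia response together with measured values of this same experiment, since *Ndufa4l2* and *Cited2* stand out by their low p-values between the groups described here. Their differences between groups are therefore given as a description, with no test read from them. RNA was taken from the whole lung of BALB/c mice (an inbred strain), labelled as 9 weeks old and with no engineered allele named. Of the 6 libraries, 3 are from mice that received 50 µl of saline into the trachea each week for 8 weeks, and 3 are from mice that received PM2.5, fine airborne particles, at 5 mg per kg of body weight in the same volume and on the same schedule. Both groups carry the replicate numbers 2, 3 and 4. Whether each library stands for its own mouse is not stated, so the errors and p-values measure only the spread between these samples, which may be technical. Values are FPKM, in which fragment numbers are divided by transcript length and by library depth, so that levels can be compared between genes per length.

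When oxygen is plentiful, prolyl hydroxylases (the EGLN enzymes) mark the alpha subunits of hypoxia-inducible factor (HIF) for destruction by the VHL ubiquitin ligase. When oxygen falls, HIF-alpha persists, pairs with ARNT, recruits the coactivators p300 and CBP, and raises genes for glucose uptake, glycolysis, blood vessel growth and mitochondrial restraint. In lung, the pathway is known for shaping the capillary bed and the response of vessel walls to low oxygen. Changes in whole tissue do not separate fewer cells of a type from less RNA per cell.

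*Ndufa4l2*, *Cited2* and *Adm* were the members with the lowest levels in PM2.5 lungs relative to saline lungs. *Ndufa4l2* encodes a mitochondrial protein related to the cytochrome oxidase subunit NDUFA4 and is a HIF target that restrains oxygen use. Its level was 14.7, 14.4 and 12.9 FPKM in saline libraries 2, 3 and 4, and 8.19, 7.84 and 7.10 FPKM in PM2.5 libraries 2, 3 and 4. The groups did not overlap, and the PM2.5 mean was 0.550 times the saline mean. The difference was -0.82 ± 0.10 (SE) on the log2(FPKM + 0.5) scale. *Ndufa4l2* lies on chromosome 10 from 127514939 to 127517152 (mm10, plus strand) and has 1 Ensembl transcript in the table. Its last bases overlap 30 bases of *Shmt2* on the opposite strand, and the library kit does not mark strand. *Shmt2* was 7.76 ± 0.611 FPKM in saline and 6.66 ± 0.783 FPKM with PM2.5 (SD, n = 3 each), with overlapping groups.

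*Cited2* encodes a coregulator that competes with HIF-alpha for the same domain of p300 and CBP and so acts as a brake on HIF. Its level was 16.1, 16.5 and 14.2 FPKM across saline and 9.25, 9.39 and 9.09 FPKM across PM2.5 libraries. The PM2.5 libraries had an SD of 1.63% of their mean, the smallest of the 10 genes in either group, and all 3 were below every saline library. The PM2.5 mean was 0.592 times the saline mean, a difference of -0.72 ± 0.09 (SE) on the log2 scale. *Cited2* (chromosome 10, 17723228 to 17725673, plus strand) also has 1 Ensembl transcript. Its relatives *Cited1* and *Cited4* were close to the lower limit: *Cited1* was listed at 0 in 4 of the 6 libraries, and *Cited4* was 0.267 to 1.05 FPKM in saline and 0 to 0.182 FPKM with PM2.5. *Ndufa4*, the relative of *Ndufa4l2*, was 25.2, 21.0 and 16.9 FPKM in saline and 20.8, 15.1 and 18.1 FPKM with PM2.5, so its groups overlapped.

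*Adm* encodes adrenomedullin, a peptide that widens vessels and tightens the endothelial barrier. It was 15.9, 14.6 and 9.59 FPKM in saline and 6.44, 5.26 and 2.76 FPKM with PM2.5. It had the largest difference of the 10 genes, -1.42 ± 0.33 (SE) on the log2 scale, and also the widest spread within the groups, 24.9% of the mean in saline and 38.9% with PM2.5. The lowest library was PM2.5 replicate 4. All 3 Ensembl transcripts of *Adm* (chromosome 7, 110627661 to 110629820, plus strand) had lower means with PM2.5. The main one, ENSMUST00000033054, went from 10.1 ± 2.69 to 4.16 ± 1.28 FPKM, and the 2 minor ones from 1.99 ± 0.761 to 0.476 ± 0.561 and from 1.31 ± 0.674 to 0.181 ± 0.168.

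**Figure D1:**
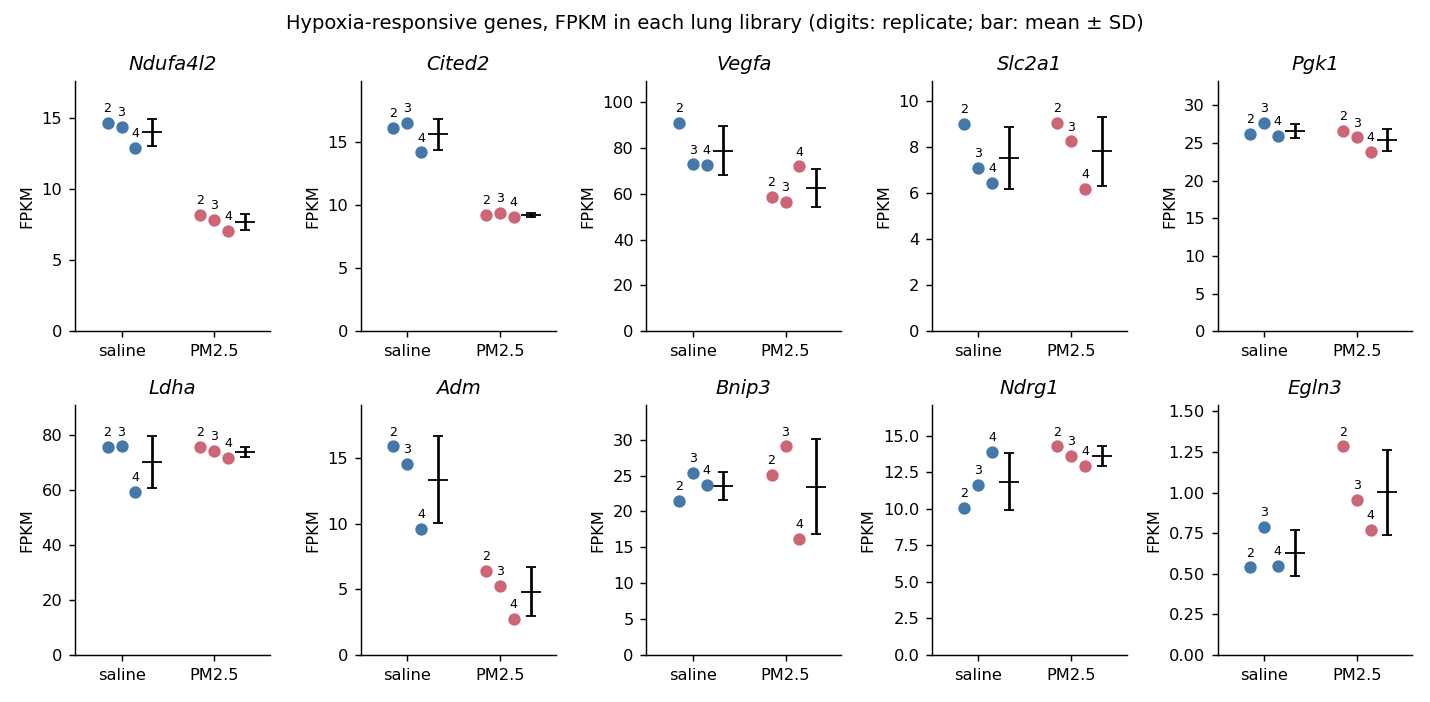
FPKM of each of the 10 genes (vertical axes, each starting at 0) in the 3 saline libraries (blue) and the 3 PM2.5 libraries (red), with the replicate number above each point and the mean ± SD as a black bar. *Ndufa4l2*, *Cited2* and *Adm* show a gap between the groups, *Vegfa* a narrow one, and the other genes overlap.

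The windows around the start sites of 8 of the 10 genes are in the RefSeq promoter table for GRCm38.p6, the assembly that mm10 corresponds to, and *Ndufa4l2* and *Ndrg1* have no entry. The windows reach from 250 bases before to 50 bases after a start site. They were searched on both strands for the core letters of the hypoxia response element, ACGTG and GCGTG, which read CACGT and CACGC on the other strand. The 4 windows below are shown because they set *Cited2* and *Adm*, both lower with PM2.5, beside *Ldha*, whose groups overlapped, and the upstream start of *Vegfa*. Matches are in capitals.

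Cited2, chr10:17722978-17723277, plus strand: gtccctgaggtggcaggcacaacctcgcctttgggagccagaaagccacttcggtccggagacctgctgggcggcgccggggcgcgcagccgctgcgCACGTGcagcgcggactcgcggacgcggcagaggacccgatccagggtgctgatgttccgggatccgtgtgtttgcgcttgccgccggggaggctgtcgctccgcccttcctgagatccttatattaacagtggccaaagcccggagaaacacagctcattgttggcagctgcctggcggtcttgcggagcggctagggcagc

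Adm, chr7:110627407-110627706, plus strand: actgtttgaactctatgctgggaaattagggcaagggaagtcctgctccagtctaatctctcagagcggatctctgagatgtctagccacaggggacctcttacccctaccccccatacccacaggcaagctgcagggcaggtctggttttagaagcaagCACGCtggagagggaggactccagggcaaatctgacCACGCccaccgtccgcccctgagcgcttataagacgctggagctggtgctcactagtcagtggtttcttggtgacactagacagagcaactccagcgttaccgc

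Ldha, chr7:46845554-46845853, plus strand: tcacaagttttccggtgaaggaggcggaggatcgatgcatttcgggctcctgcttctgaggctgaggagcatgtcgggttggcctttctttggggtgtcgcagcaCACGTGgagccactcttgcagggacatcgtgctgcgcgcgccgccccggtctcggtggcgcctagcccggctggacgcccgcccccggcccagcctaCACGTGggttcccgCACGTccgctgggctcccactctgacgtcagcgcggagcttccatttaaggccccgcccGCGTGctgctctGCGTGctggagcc

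Vegfa, chr17:46032328-46032627, minus strand: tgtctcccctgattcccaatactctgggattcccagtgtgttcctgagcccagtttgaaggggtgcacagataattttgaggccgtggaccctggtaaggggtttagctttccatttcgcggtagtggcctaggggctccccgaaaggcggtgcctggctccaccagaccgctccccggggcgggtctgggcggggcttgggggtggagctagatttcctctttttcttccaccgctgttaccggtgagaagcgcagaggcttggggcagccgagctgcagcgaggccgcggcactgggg

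The *Cited2* window holds CACGTG, which reads the same on both strands and so counts as 2 overlapping matches, starting 153 bases before the start site. The *Adm* window holds CACGC at 90 and at 54 bases before the start site. The *Ldha* window holds 7 matches, 4 of them from 2 copies of CACGTG, at 145 and at 48 bases before the start site. The upstream *Vegfa* window holds 0 matches, which says nothing of sequence farther upstream, since that was not searched. The window of the internal start site at 46025163 holds 2. That window lies inside the *Vegfa* gene, so its letters may belong to transcribed sequence, and whether it acts as a promoter was not tested. *Bnip3* holds 5, *Slc2a1* and *Pgk1* 2 each, and *Egln3* 1. A second *Ldha* window, of the start site at 46847082, holds 2. In all, 9 of the 10 windows of these genes hold a match, and so do 43.8% of the 32851 windows in the table. Each of the words searched contains CG, and the windows were not matched for CG content, so these shares are not compared. Genes with lower levels under PM2.5 and genes with overlapping groups both hold these letters, and a match is not a measured binding site.

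*Vegfa*, the growth factor that maintains alveolar capillaries, showed a small difference. Over its Ensembl transcripts, the sign of that difference depended on 1 transcript. Summed over its 10 Ensembl transcripts (chromosome 17, 46016993 to 46032377, minus strand) it was 91.0, 72.80 and 72.76 FPKM in saline and 58.7, 56.5 and 71.9 FPKM with PM2.5. The groups did not overlap, but PM2.5 replicate 4 came within 1 FPKM of saline replicates 3 and 4. The difference was -0.34 ± 0.14 (SE) on the log2 scale. A single transcript, ENSMUST00000142351 (46018543 to 46032369), was 51.5, 36.4 and 29.7 FPKM in saline and 13.6, 15.3 and 25.2 FPKM with PM2.5. It made up 49.1% of the *Vegfa* sum in saline and 28.4% with PM2.5, on average. Without it, a choice made after seeing the transcript values, *Vegfa* was 39.5, 36.4 and 43.1 FPKM in saline and 45.2, 41.1 and 46.7 FPKM with PM2.5. The difference then had the other sign, 0.16 ± 0.09 (SE) on the log2 scale, and the groups overlapped. The next transcripts, ENSMUST00000143985 and ENSMUST00000071648, had group means of 20.8 ± 4.43 and 23.4 ± 1.57 FPKM and of 15.8 ± 3.81 and 16.6 ± 1.87 FPKM, saline first.

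The table also lists a NONCODE transcript, NONMMUT029805.2, at the 3′ end of *Vegfa* on its strand (46016997 to 46018672). It was 94.8, 58.7 and 67.5 FPKM in saline and 56.9, 59.0 and 53.8 FPKM with PM2.5. Its mean was also lower with PM2.5, at 56.6 against 73.7 FPKM in saline, with overlapping groups. The *Vegfa* values without ENSMUST00000142351 do not include it. With it added, the *Vegfa* locus came to 186, 131 and 140 FPKM in saline and 116, 115 and 126 FPKM with PM2.5. The locus sum was lower in all 3 PM2.5 libraries than in any saline library, by a margin set by saline replicate 3 and PM2.5 replicate 4. How fragments were divided among overlapping transcripts of this gene is not given in the sources used here.

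**Figure D2:**
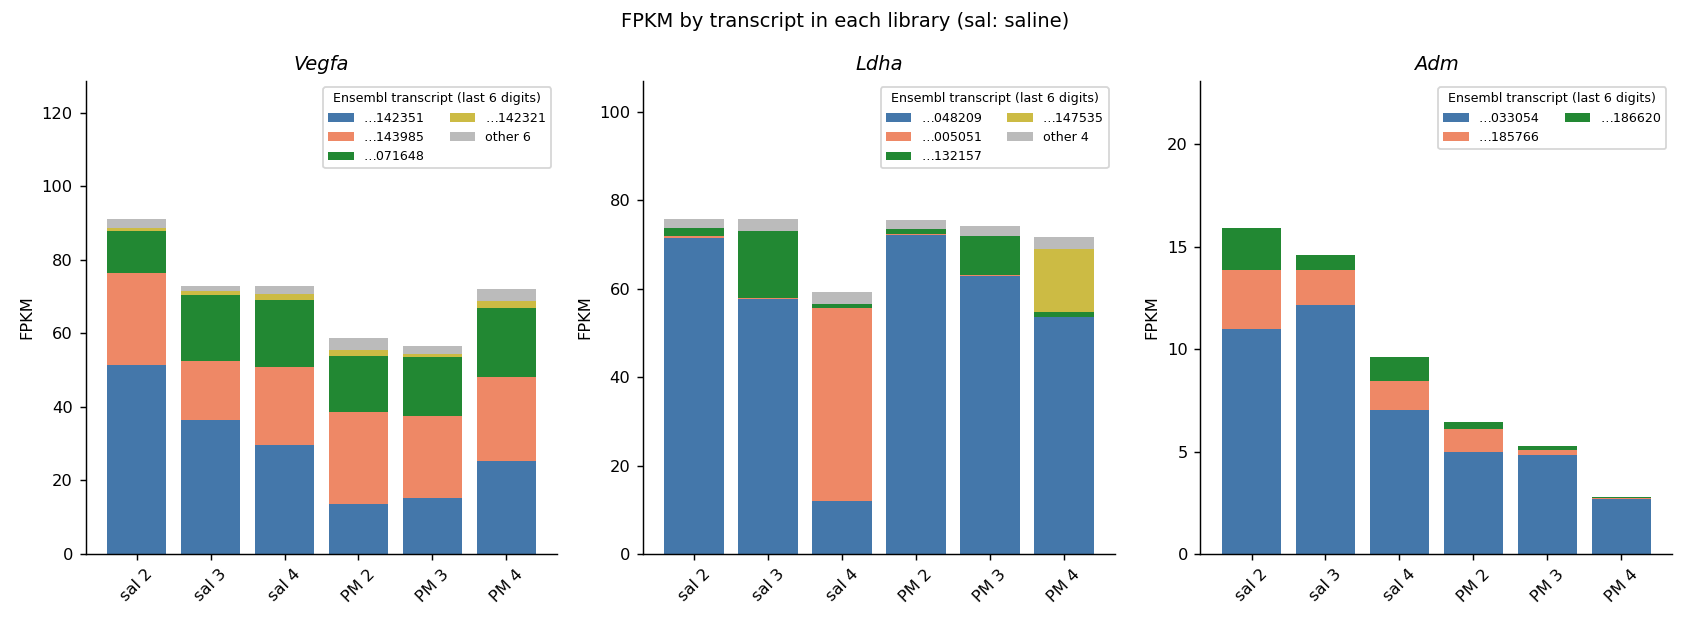
FPKM (vertical axes) of *Vegfa*, *Ldha* and *Adm* in each library (horizontal axes), stacked by Ensembl transcript. The ENSMUST00000142351 part of *Vegfa* is largest in saline, at 29.7 to 51.5 FPKM. The *Ldha* total is lowest in saline replicate 4, at 59.3 FPKM, where its transcripts exchange places, and 71.7 to 75.8 FPKM elsewhere. Every part of *Adm* has a lower mean with PM2.5.

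The metabolic members, which carry glucose into glycolysis and on to lactate, had overlapping groups. *Slc2a1*, the glucose transporter GLUT1, was 9.03, 7.12 and 6.44 FPKM in saline and 9.07, 8.26 and 6.18 FPKM with PM2.5. *Pgk1*, an ATP-making enzyme of glycolysis, was 26.1, 27.7 and 25.9 FPKM in saline and 26.6, 25.7 and 23.8 FPKM with PM2.5, with an SD of 3.64% of the mean in saline and 5.73% with PM2.5. The related sequence *Pgk1-rs7* is listed separately, so fragments that match both may be divided between them. *Ldha*, the enzyme that turns pyruvate into lactate, was 75.7, 75.8 and 59.3 FPKM in saline and 75.5, 74.3 and 71.7 FPKM with PM2.5. Their log2 differences were 0.05 ± 0.19, -0.07 ± 0.08 and 0.08 ± 0.11 (SE), with 95% intervals of -0.40 to 0.50, -0.25 to 0.12 and -0.20 to 0.36.

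The sum of *Ldha* was steadier than its transcripts. ENSMUST00000048209 held 94.5% and 75.9% of it in saline replicates 2 and 3 but 20.1% in saline replicate 4, where ENSMUST00000005051 held 73.9%. In PM2.5 replicate 4, ENSMUST00000147535 was 14.2 FPKM, and it was listed at 0 in the other 5 libraries. Single transcripts of *Ldha* thus moved by more between replicates of a group than the gene did between groups.

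The mitochondrial, stress and oxygen-sensing members also had overlapping groups. *Bnip3*, which directs mitochondria to autophagy, was 21.4, 25.3 and 23.7 FPKM in saline and 25.1, 29.1 and 16.1 FPKM with PM2.5. PM2.5 replicates 3 and 4 were its highest and lowest libraries, so its spread with PM2.5 was 28.3% of the mean. *Ndrg1*, a growth-restraining stress gene, was 10.04, 11.6 and 13.9 FPKM in saline and 14.3, 13.6 and 12.9 FPKM with PM2.5. *Egln3*, a prolyl hydroxylase that HIF itself induces, had the lowest level, at 0.539, 0.788 and 0.550 FPKM in saline and 1.28, 0.954 and 0.768 FPKM with PM2.5. The log2 differences of these 3 genes were -0.04 ± 0.22, 0.20 ± 0.13 and 0.41 ± 0.19 (SE). For *Egln3* the depth limits precision, since at the estimated depth 3 fragments per kb of transcript equal 0.133 to 0.165 FPKM, a floor that covers counting error only.

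**Figure D3:**
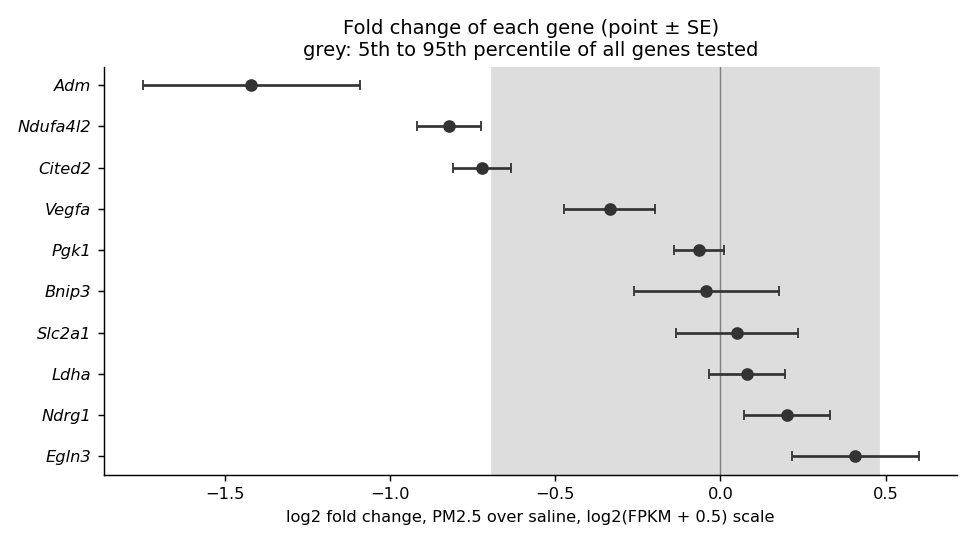
Log2 fold change of each gene, PM2.5 over saline, on the log2(FPKM + 0.5) scale, with its SE; the grey band spans the 5th to the 95th percentile of the 14865 genes tested, -0.69 to 0.48. *Adm*, *Ndufa4l2* and *Cited2* lie below the band and the other genes within it.

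By mean level per length in saline, *Vegfa* (78.9 ± 10.5 FPKM, SD, n = 3) and *Ldha* (70.3 ± 9.51) came first and did not differ beyond their spread. *Pgk1* (26.6 ± 0.967) and *Bnip3* (23.5 ± 1.94) followed. *Cited2* (15.6 ± 1.25), *Ndufa4l2* (14.0 ± 0.959), *Adm* (13.4 ± 3.33) and *Ndrg1* (11.9 ± 1.95) came next, and neighbouring genes among these had overlapping libraries. *Slc2a1* (7.53 ± 1.35) and *Egln3* (0.626 ± 0.141) had the lowest means. With PM2.5, *Ndrg1* (13.6 ± 0.659) stood above *Cited2* (9.24 ± 0.150), *Slc2a1* (7.84 ± 1.49), *Ndufa4l2* (7.71 ± 0.561) and *Adm* (4.82 ± 1.88), so the order of these genes differed between the groups.

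Across the 10 genes, 4 had no overlap between groups with the PM2.5 libraries lower (*Ndufa4l2*, *Cited2*, *Vegfa* and *Adm*), a pattern that 11.8% of all genes tested showed. The opposite pattern, with PM2.5 higher, was seen in 0 of the 10 and in 7.04% of all genes. The median log2 fold change was -0.05 over the 10 genes and -0.03 over all genes tested, with 6 of the 10 genes below 0 and 4 above. In the limma fit across all genes with Benjamini-Hochberg adjustment, 0 of the 10 passed the threshold of 0.05, against 0.0942% of all genes (14 of 14865). Their adjusted p with limma ranged from 0.0808 to 0.962. At an unadjusted p under 0.05 there were 3 members (*Ndufa4l2*, *Cited2* and *Adm*), all lower, against 7.82% of all genes lower at that level and 11.5% in either direction. The split over all genes depended on scaling: 544 were higher and 1163 lower as deposited, 739 and 961 after median-ratio scaling, and 796 and 892 after quantile normalization. Ordered by unadjusted p, *Ndufa4l2* was 25th and *Cited2* 27th of all genes. Nothing is read from these counts, since the genes were named with this comparison known.

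The HIF subunits and the enzymes that degrade them showed no difference that passed the threshold. *Hif1a* was 18.0, 20.1 and 20.9 FPKM in saline and 21.0, 20.3 and 22.7 FPKM with PM2.5. *Epas1*, which encodes HIF-2 alpha, the form abundant in lung endothelium, ranged from 17.4 to 40.5 FPKM in saline and from 18.3 to 40.7 FPKM with PM2.5. *Arnt*, the shared partner, was 16.8 to 20.9 and 18.4 to 22.7 FPKM. The coactivator genes *Ep300* and *Crebbp*, whose products *Cited2* protein binds, had log2 differences of 0.11 ± 0.08 and -0.12 ± 0.13 (SE). Among the hydroxylases, *Egln1* was 16.8, 16.8 and 16.22 FPKM in saline and 16.21, 15.7 and 14.97 FPKM with PM2.5, and *Hif1an*, which blocks coactivator binding, was 16.2, 15.9 and 16.5 FPKM and 17.1, 19.0 and 19.4 FPKM. *Vhl* was 6.97 to 7.29 FPKM in saline and 6.60 to 7.99 FPKM with PM2.5. Of 9 subunit and partner genes 6 were tested, and of 9 hydroxylase and degradation genes all were. Limma called 0 of these 15 and put 0 at an unadjusted p under 0.05. Among the 9 hydroxylase and degradation genes, groups did not overlap for 1 lower with PM2.5 (*Egln1*) and 2 higher (*Hif1an* and *P4htm*). Of all genes tested, 11.8% and 7.04% showed these patterns. *P4htm*, named after its values were seen, was 2.58 ± 0.866 FPKM in saline and 3.84 ± 0.372 FPKM with PM2.5 (SD).

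Glycolysis genes had differences in both directions. Of 20 tested, 7 were above and 13 below a log2 fold change of 0, and the median was -0.04. The lowest was *Pfkm*, a phosphofructokinase subunit named after its values were seen, at -0.46 ± 0.19 (SE) with overlapping groups. With limma 0 passed, and 1 reached an unadjusted p under 0.05: *Slc16a3*, a lactate exporter, was 3.83 ± 0.161 FPKM in saline and 3.02 ± 0.341 FPKM with PM2.5. *Eno1*, another enzyme of the pathway, was 29.4 to 31.8 FPKM in saline and 31.9 to 35.9 FPKM with PM2.5, with no overlap. *Gapdh*, textbook-abundant in most tissues, was listed at 0.791 to 2.10 FPKM over the 6 libraries, and whether its fragments were counted on transcripts that carry no gene name was not tested.

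Other HIF targets had differences in both directions, and limma called 0 of them. *Ddit4*, an inhibitor of mTOR signalling, was 22.3, 43.1 and 21.5 FPKM in saline and 5.59, 5.35 and 1.17 FPKM with PM2.5, a log2 difference of -2.84 ± 0.57 (SE, adjusted p = 0.205 with limma). *Angptl4*, a regulator of lipoprotein lipase, was 11.5, 16.7 and 16.8 FPKM in saline and 10.1, 7.60 and 4.33 FPKM with PM2.5. The collagen-modifying genes *P4ha1* and *Plod1*, named after their values were seen, had higher means with PM2.5, 10.4 ± 0.629 against 7.01 ± 1.97 FPKM and 22.2 ± 1.18 against 17.9 ± 2.12 FPKM. Of 24 tested genes in this list, 12 were above and 12 below a log2 fold change of 0, with a median of -0.01. An unadjusted p under 0.05 with limma was reached by 5 of the 24, 3 lower and 2 higher, and by 11.5% of all genes tested.

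Among the other ligands of the VEGF and angiopoietin families and apelin, *Apln*, an endothelial peptide that HIF induces, was 18.1, 17.1 and 17.6 FPKM in saline and 12.6, 13.5 and 14.2 FPKM with PM2.5, and *Vegfb* was 9.81, 9.22 and 6.92 FPKM and 6.04, 5.54 and 5.74 FPKM. *Pgf*, placental growth factor, was 1.56 to 2.02 FPKM in saline and 2.07 to 2.51 FPKM with PM2.5. With limma 0 of the 7 tested passed, and *Apln* and *Vegfb* reached an unadjusted p under 0.05. The adrenomedullin receptor *Calcrl* was 155, 214 and 338 FPKM in saline and 179, 229 and 177 FPKM with PM2.5, and its partner *Ramp2* was 90.2, 48.5 and 59.7 FPKM and 75.9, 127 and 78.3 FPKM, so both overlapped. The VEGF receptor *Kdr* overlapped between groups at 107 to 111 and 93.0 to 119.6 FPKM, and the decoy receptor *Flt1* was 22.5, 43.0 and 37.7 FPKM in saline and 47.2, 46.2 and 49.3 FPKM with PM2.5. *Gpr182*, a receptor of endothelium, was 10.9 ± 0.166 and 13.2 ± 1.53 FPKM, and *Ackr3*, named after its values were seen, which takes up adrenomedullin and chemokines, was 15.2 ± 3.80 and 8.94 ± 2.58 FPKM. With limma 0 of the 11 receptor genes passed, and *Gpr182* and *Ackr3* reached an unadjusted p under 0.05.

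**Figure D4:**
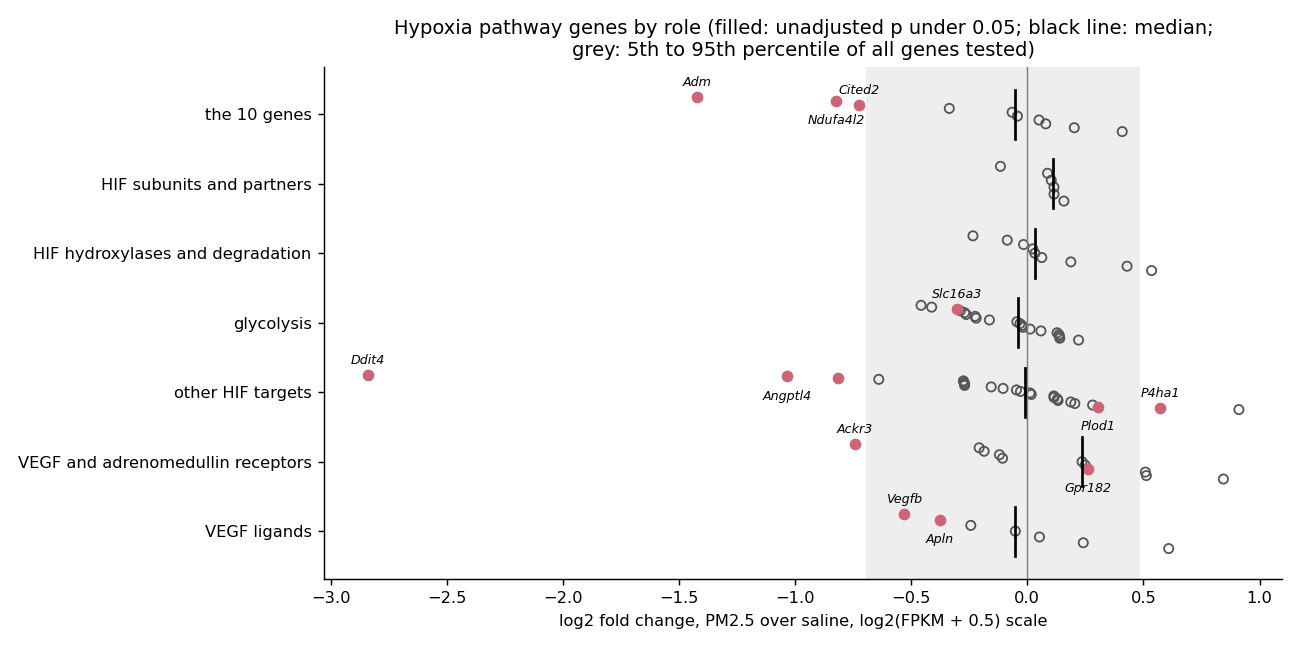
Log2 fold change (horizontal axis, PM2.5 over saline, log2(FPKM + 0.5) scale) of each tested gene, in rows by role, with the 10 genes on top. Filled points have an unadjusted p under 0.05, with names for those given in the text, black lines are list medians, and the grey band spans -0.69 to 0.48, the 5th to the 95th percentile of all genes; the medians lie between -0.05 and 0.24.

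Over the 6 pathway lists together, 76 of 83 genes were tested, 39 above and 37 below a log2 fold change of 0, and limma called 0 at an adjusted p under 0.05 (lowest adjusted p = 0.205). At an unadjusted p under 0.05, 7 were lower and 3 higher, where 7.82% and 3.66% of all genes were. Groups did not overlap for 12 genes lower and 10 higher with PM2.5, beside 11.8% and 7.04% of all genes.

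The libraries carried the markers of lung: *Ager* of alveolar type 1 cells was 330 to 427 FPKM, *Pecam1* of endothelium 136 to 173 FPKM, and *Sftpc* of alveolar type 2 cells 588 to 8108 FPKM. *Ndufa4l2* is known as a gene of pericytes, the contractile cells on capillaries. Of 10 pericyte markers, 8 had a negative log2 fold change, as did 8331 of all 14865 genes tested. The same held for 8 of 10 endothelial and 8 of 8 smooth muscle markers. At an unadjusted p under 0.05 with limma there were 0 pericyte markers. The only 1 without overlap, *Lamc3*, named after its values were seen, was higher with PM2.5 (4.66 ± 0.601 in saline and 5.69 ± 0.455 FPKM). The 10 pericyte markers summed to 187 to 246 FPKM in saline and 160 to 203 FPKM with PM2.5. Among them *Cox4i2* was 21.8 to 25.6 and 20.1 to 24.6 FPKM, and *Higd1b* was 1.77, 2.87 and 3.16 FPKM in saline and 0.745, 2.14 and 1.08 FPKM with PM2.5. *Pdgfrb* was at most 0.720 FPKM in any library. Whether fragments of *Pdgfrb* were counted on transcripts that carry no gene name was not tested. The 10 endothelial markers summed to 1222 to 1311 FPKM in saline and to 1030.5 to 1191 FPKM with PM2.5. The gap came with *Cldn5*, a tight junction gene named after its values were seen, at 215 ± 47.3 FPKM in saline and 98.1 ± 8.33 FPKM with PM2.5 (adjusted p = 0.139 with limma). Without it, a choice made after seeing the values, the other 9 summed to 983 to 1147 and 933 to 1084 FPKM and overlapped. Cardiac muscle, skeletal muscle and adipocyte markers summed to 175 to 376, 12.0 to 25.9 and 18.3 to 33.7 FPKM in saline. With PM2.5 they summed to 36.6 to 265, 2.34 to 13.1 and 4.57 to 49.5 FPKM, with PM2.5 replicate 2 at the upper end of each. At an unadjusted p under 0.05, 1 of 10 endothelial (*Cldn5*), 1 of 7 tested cardiac (*Tnni3*) and 3 of 4 tested skeletal muscle markers (*Acta1*, *Ckm* and *Atp2a1*) were lower. Of all genes tested, 7.82% were lower at that level. With limma 0 were called in each list. In PM2.5 replicate 2, *Ndufa4l2* was 8.19, *Cited2* 9.25 and *Adm* 6.44 FPKM, for *Ndufa4l2* and *Adm* the highest of the PM2.5 libraries. In saline replicate 2, the cardiac, skeletal muscle and adipocyte sums were the lowest of the saline libraries. There *Ndufa4l2* was 14.7, *Cited2* 16.1 and *Adm* 15.9 FPKM, for *Ndufa4l2* and *Adm* the highest of the saline libraries. The part of these cell types in the differences of *Ndufa4l2*, *Cited2* and *Adm* was not tested.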

How the data were processed

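The deposited table gives 1 value per transcript and library. The authors' values were read as FPKM, since the header names no unit, the columns sum to 345089 to 388125, and low values times transcript span fall near steps that would put each library at 18.2 to 22.5 M fragments (an estimate). The submitters' processing notes name the tools bcl2fastq and HISAT2 and build mm10. The step that made FPKM is not given in the sources used here, nor is the annotation release. Transcripts named MERGE, with no gene or position, took up 17.6% to 20.6% of each library's FPKM, so gene values leave out fragments counted there.

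Values of Ensembl transcripts were summed per symbol. Genes averaging 0.5 FPKM or more were tested on log2(FPKM + 0.5) by limma 3.58.1 under R 4.3.3 (mean trend, 2-sided, Benjamini-Hochberg over all genes, threshold 0.05), a procedure tested on simulated data. It recovered 95 of 200 genes changed 2-fold (47.5%, with 2 false calls) and 177 of 200 changed 4-fold (88.5%, with 8). A 2-fold difference can therefore go uncalled. Differences on the log2(FPKM + 0.5) scale understate those of low genes. Locus sums add NONCODE transcripts with at least 50% of their span inside the gene on its strand. All members are named; in each pathway list, apart from HIF regulators, up to 3 genes with the lowest p among those without overlap are named. A gene that this rule picks among the other HIF targets is not reported here. The members and lists were chosen with earlier results of these data known. Marker lists of 13 cell types were summed, and lists without a result above are given in the closing section. Alternatives tried were a pseudocount of 1 or 0.1, leaving out the filter, a minimum mean of 2 FPKM, scaling by median ratios, quantile normalization, robust variance moderation, locus sums, a replicate block and each library left out.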

Additional observations from a re-analysis of the deposited data

How the results depend on the processing

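In all 15 alternatives 0 of the 10 genes and 0 of the pathway genes passed the adjusted threshold with limma. *Ndufa4l2*, *Cited2* and *Adm* kept a negative log2 fold change in each. The ranges were -0.88 to -0.77 for *Ndufa4l2* (limma adjusted p 0.0722 to 0.230), -0.79 to -0.68 for *Cited2* (0.0681 to 0.234) and -1.65 to -1.10 for *Adm* (0.144 to 0.523). *Vegfa* stayed negative (-0.44 to -0.23) except in the added alternative without ENSMUST00000142351. Values near 0 changed sign: *Slc2a1* to -0.05 on leaving out saline replicate 4 and to -0.06 on leaving out PM2.5 replicate 2, *Ldha* to -0.04 without saline replicate 4, and *Bnip3* to 0.01 on leaving out saline replicate 3 and to 0.20 on leaving out PM2.5 replicate 4. *Egln3* does not reach the minimum mean of 2 FPKM. Over all genes, 11 were called higher and 3 lower. With the replicate block the counts were 0 and 1, without a filter 7 were higher, and at a minimum mean of 2 FPKM 6 were higher. Leaving out 1 library gave 0 to 12 higher and 3 to 14 lower. There were 6 higher without saline replicate 3, 0 higher when PM2.5 replicate 4 was dropped, 9 and 14 lower without saline replicates 2 and 4, and 6, 11 and 5 lower when PM2.5 replicates 2, 3 and 4 were dropped in turn. Where limma called 0 higher, 491 genes (replicate block) and 450 genes (without PM2.5 replicate 4) were higher at an unadjusted p under 0.05. The cause was not tested. The median over the 10 genes ranged from -0.15 to 0.04. Same-numbered libraries did not deviate together (r of -0.03, -0.03 and 0.05 across genes), so the replicate numbers are not taken as a pairing. Depth limits *Egln3* and *Cited4*.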

Other observations

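Marker sums of most other lung cell types overlapped between the groups. The 8 smooth muscle markers summed to 266 to 353 FPKM in saline and 190 to 418 FPKM with PM2.5, the 8 alveolar type 1 markers to 1088 to 1172 and 973 to 1185, and the 8 alveolar type 2 markers to 3764 to 10877 and 3901 to 9418. The 7 erythroid markers found summed to 3644 to 4713 and 3914 to 5710 FPKM, the 7 neutrophil markers to 38.4 to 52.2 and 31.9 to 62.0, and the 6 macrophage markers found to 76.8 to 94.5 and 77.2 to 109. Sums did not overlap for 8 fibroblast markers, at 695 to 712 FPKM in saline and 580 to 627 FPKM with PM2.5, and for 4 club cell markers, at 7203 to 9140 and 4198 to 5878 FPKM. Without the marker whose mean differed most, a choice made after seeing the values, both overlapped: without *Mfap4* the fibroblast sums were 306 to 399.6 and 281 to 358 FPKM, and without *Scgb1a1* the club cell sums were 826 to 1209 and 922 to 1633 FPKM. In each of these lists limma called 0 genes. At an unadjusted p under 0.05 there were 3 alveolar type 1, 2 erythroid and 1 each of the club cell, fibroblast and neutrophil markers. Over all genes tested, 11.5% reached that level.

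Of 18 close relatives of the 10 genes, 13 were tested and 0 passed with limma, with 1, *Vegfb*, at an unadjusted p under 0.05. *Bnip3l*, which like *Bnip3* directs mitochondria to autophagy, was 7.09 FPKM in saline replicate 2 and 44.3 to 46.7 FPKM in the other 5 libraries, so the PM2.5 libraries lay above every saline library by a margin under 1 FPKM.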
